A study of Mus musculus with 60 samples.

Results

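Gene expression in mice without myostatin was compared between fetal hindquarters and a postnatal muscle. The Mstn-null hindquarters of 17.5 days post coitum (d.p.c.) were set against the Mstn-null pectoralis muscle of postnatal day 35 (d35), and the members were all the samples that the labels place in these groups: 20 of the 60 arrays of the series, from 10 of its 30 RNA pools. In the full study, Mstn-null and Wildtype C57BL/6J mice were profiled as whole embryos, as hindquarters and as pectoralis on the Affymetrix MOE430A and MOE430B oligonucleotide chips. Each group held 5 pools, each pool the RNA of 3 animals (15 animals a group), and was read on the 2 chips. Every animal of both groups compared here carried the null genotype on the C57BL/6J background, and no other agent or allele is named. The fetal mice were killed with CO2 and their hindquarters hold skin, bone, nerve, vessel and blood besides muscle, whereas the d35 mice were killed by cervical dislocation and gave 1 dissected muscle. The RNA was isolated with a column kit from the hindquarters and by an earlier published protocol from the pectoralis, and the arrays of the 2 ages lie on different scales as deposited. Age, tissue, manner of death, RNA isolation and scale therefore go together, and their parts in any difference below cannot be told apart. The study tested genotypes within an age and set no age against another.

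Myostatin is a secreted protein of the TGF-beta family, made by muscle, that restrains the number and size of muscle fibres, and animals that lack it carry more muscle. During fetal and early postnatal life a mouse muscle fibre exchanges its embryonic and perinatal myosins and troponins for adult ones, gains a T-tubule and sarcoplasmic reticulum system, leaves the cell cycle behind and enlarges its energy supply. Adult fibres are slow, with the type I myosin of Myh7 and a reliance on oxidation, or fast, with the type IIa, IIx or IIb myosins of Myh2, Myh1 and Myh4, and the absence of myostatin is known for a shift towards fast glycolytic fibres.

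Levels are log2 intensities after quantile normalization of the 10 Mstn-null arrays of each chip, and a difference is always the pectoralis mean minus the hindquarters mean on that log2 scale, with its standard error (SE). A probe set was called at a Benjamini-Hochberg adjusted p under 0.05 by limma with a difference of at least 1 (2-fold). Of 45037 probe sets, 3342 (7.42%) were higher and 4575 (10.2%) lower in the pectoralis, and of 18193 genes, each read by its brightest probe set, 1607 (8.83%) were higher and 1985 (10.9%) lower (19.7% in all). The groups of 5 did not overlap for 67.5% of the probe sets and 68.9% of the genes, so a lack of overlap alone says little about any gene named here. Pools correlated at 0.984 to 0.995 within the hindquarters, 0.995 to 0.996 within the pectoralis and 0.855 to 0.877 between them. The balance of directions depends on the scale: 42.2% of the calls were higher in the pectoralis with quantile normalization, 42.6% with median centring, 52.6% by within-array ranks and 5.17% in the deposited values, whose median difference over all probe sets was −0.77. Bacterial spike controls, which measure no mouse RNA, differed by a median of 0.010 on MOE430A and −0.23 on MOE430B in those deposited values. For the actin control on MOE430A, the 3′ level minus the 5′ level, which tracks RNA integrity and labelling, was 0.240 to 0.374 in the hindquarters and 0.060 to 0.211 in the pectoralis; for the Gapdh control it was −0.054 to 0.007 and 0.002 to 0.157, the higher values lying in the pectoralis. The part of these differences in the results was not tested. No probe set names Mstn, so the deleted gene was not analysed here.

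The myosin heavy chains of development gave way to the fast adult ones. Their levels in each pool are drawn with those of other sarcomere genes in the plot by pool. Myh3, the embryonic myosin heavy chain, stood at 12.52, 12.48, 13.01, 12.80 and 12.81 in the 5 hindquarters pools and at 5.80, 5.94, 5.80, 5.71 and 5.96 in the 5 pectoralis pools. All hindquarters pools lay far above all pectoralis pools, with a difference of −6.88 (SE 0.0961), an intensity 118-fold lower at d35 (adjusted p = 1.51e-13). Myh8, the perinatal myosin, was at 12.15, 12.07, 12.80, 12.40 and 12.59 against 6.58, 6.66, 6.60, 6.70 and 6.87, a difference of −5.72 (SE 0.125, 52.8-fold lower, adjusted p = 2.98e-12). Myh4, the fast type IIb myosin, ran the other way and showed the largest rise of any called probe set. It was at 5.42, 5.36, 5.90, 5.68 and 5.99 in the hindquarters and at 14.10, 14.13, 14.08, 14.08 and 14.10 in the pectoralis, a difference of 8.43 (SE 0.109, 345-fold, adjusted p = 7.82e-14). The type IIa myosin Myh2 differed by 6.37 (SE 0.0927) and the type IIx myosin Myh1 by 6.11 (SE 0.204), again without overlap. Arrays have no true zero and no detection call was given, so folds from the lowest levels are ratios of intensities rather than of transcripts, and levels of different genes are not set against each other.

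**Figure D1:**
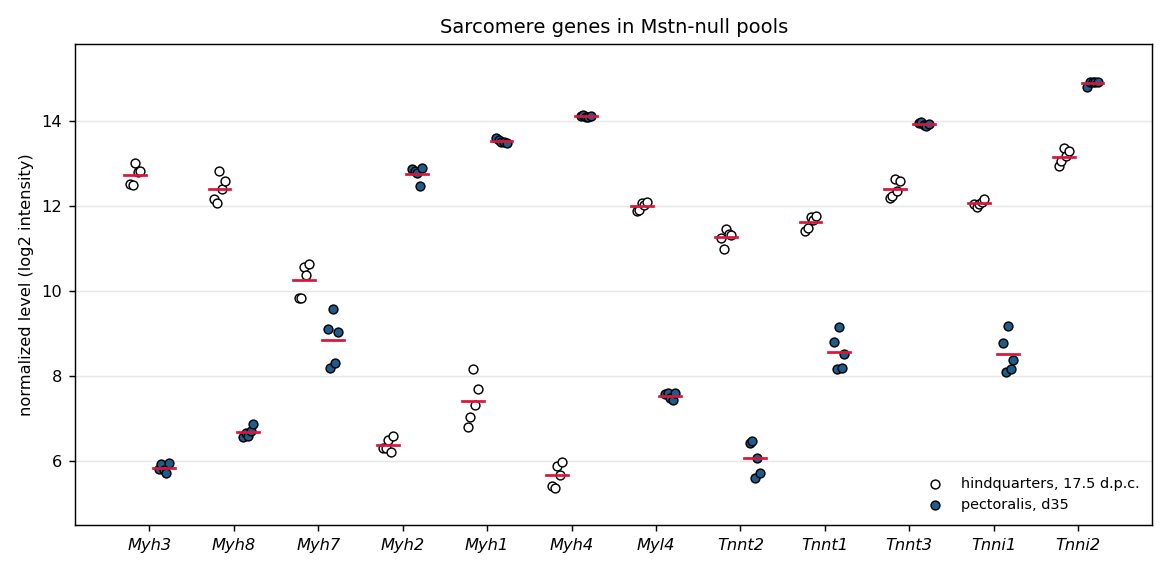
Normalized log2 intensity of 12 sarcomere genes in the 10 Mstn-null pools, with open circles for the 5 hindquarters pools of 17.5 d.p.c., filled circles for the 5 pectoralis pools of d35 and red lines for group means. Myh3 and Myh8 lie near 12 in the hindquarters and near 6 to 7 in the pectoralis, Myh2, Myh1 and Myh4 lie the other way round, and the pectoralis pools spread most widely for Myh7, Tnnt1 and Tnni1.

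The embryonic, perinatal and type IIb myosins sit in the same gene cluster on chromosome 11, and the 250 bases before their start sites are shown because these neighbours moved in opposite directions. The sequences are those of RefSeq on build GRCm38.p6, plus strand, 5′ to 3′, at chr11:67078050-67078299 (Myh3), chr11:67276874-67277123 (Myh8) and chr11:67237562-67237811 (Myh4). Capitals mark matches on either strand to the E-box CANNTG, the letters bound by the myogenic regulators, and to the MEF2 consensus.
Myh3: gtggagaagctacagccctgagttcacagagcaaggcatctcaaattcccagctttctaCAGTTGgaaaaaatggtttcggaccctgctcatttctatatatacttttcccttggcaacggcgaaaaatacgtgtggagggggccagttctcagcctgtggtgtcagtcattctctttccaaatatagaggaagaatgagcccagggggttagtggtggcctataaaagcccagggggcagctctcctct
Myh8: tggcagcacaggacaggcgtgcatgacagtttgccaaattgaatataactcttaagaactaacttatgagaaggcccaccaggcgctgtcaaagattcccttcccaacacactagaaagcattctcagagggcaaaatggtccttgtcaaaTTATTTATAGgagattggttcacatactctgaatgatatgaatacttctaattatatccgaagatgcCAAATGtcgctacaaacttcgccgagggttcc
Myh4: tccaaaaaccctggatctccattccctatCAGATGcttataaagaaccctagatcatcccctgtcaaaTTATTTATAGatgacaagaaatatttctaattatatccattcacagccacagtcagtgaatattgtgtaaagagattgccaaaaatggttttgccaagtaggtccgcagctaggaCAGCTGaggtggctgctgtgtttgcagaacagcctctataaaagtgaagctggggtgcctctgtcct
The stretch of Myh3 held 1 E-box and 0 MEF2 matches, that of Myh8 1 of each, and that of Myh4 2 E-boxes and 1 MEF2 match. The MEF2 match of Myh8 and that of Myh4 have the same letters. An E-box occurred in 66.0% and the MEF2 consensus in 3.01% of the 27025 promoter stretches of this length, so the E-box alone marks little. Among the fast-twitch genes with a stretch, 7 of 10 held an E-box and 3 of 10 the MEF2 consensus, against 14 of 14 and 2 of 14 of the slow-twitch genes and 6 of 9 and 1 of 9 of the developmental sarcomere genes. These are counts of letters, not of bound sites.

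Of 10 developmental sarcomere and fetal muscle genes, 6 were lower in the pectoralis, 1 was higher and 3 were not called, with a median difference of −1.95 against 0.093 over all genes measured. Besides Myh3 and Myh8, the embryonic essential light chain Myl4 differed by −4.45 (SE 0.0568), the cardiac and fetal troponin T gene Tnnt2 by −5.20 (SE 0.163), the fetal gamma subunit of the acetylcholine receptor Chrng by −2.18 (SE 0.123) and the adhesion molecule Ncam1 by −1.71 (SE 0.0729). Tnnt2 was at 10.97 to 11.44 in the hindquarters and 5.61 to 6.48 in the pectoralis. The exception was Mybph, a myosin binding protein, which was 2.64 (SE 0.109) higher at d35. Cardiac actin Actc1 (0.16, SE 0.0612), Cdh15 (−0.20, SE 0.0783) and nestin, Nes (−0.77, SE 0.128), were not called. Counted on the deposited values, 8 of the 10 were lower.

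Of 15 slow-twitch genes, 7 were lower in the Mstn-null pectoralis than in the hindquarters, 1 was higher and 7 were not called (median −0.97). The slow troponins fell the furthest. Tnni1, slow troponin I, was at 12.03, 11.98, 12.05, 12.08 and 12.16 in the hindquarters and at 8.77, 8.09, 9.16, 8.16 and 8.38 in the pectoralis, a difference of −3.55 (SE 0.171, 11.7-fold lower, adjusted p = 1.37e-09). Tnnc1, slow and cardiac troponin C, differed by −3.20 (SE 0.196) and Tnnt1, slow troponin T, by −3.05 (SE 0.167). The slow myosin Myh7 stood at 9.82, 9.82, 10.57, 10.38 and 10.62 against 9.11, 8.18, 9.56, 8.30 and 9.04, a difference of −1.41 (SE 0.261, 2.65-fold lower, adjusted p = 0.000298). Its groups were separate by a narrow margin, with the highest pectoralis pool at 9.56 and the lowest hindquarters pool at 9.82. Pectoralis replicates 2 and 4 were the lowest for Myh7, Tnnt1, Tnni1, Tnnc1 and the slow light chain Myl2, so slow genes varied together among the pools of this muscle. Casq2, the slow and cardiac calsequestrin, differed by −1.62 (SE 0.0887), the muscle LIM protein Csrp3 by −1.92 (SE 0.154) and tropomyosin 3, Tpm3, by −1.79 (SE 0.0624) in its brightest probe set, while 2 of its 5 probe sets were not called. Myl2 (0.29, SE 0.228) and Myl3 (0.00, SE 0.0678), the slow light chains, were not called, and their groups overlapped. Also not called were Atp2a2 (−0.97, SE 0.126), Myl6b (−0.90, SE 0.071), Myoz2 (−0.77, SE 0.101), Mybpc1 (−0.28, SE 0.0724) and phospholamban, Pln (0.72, SE 0.0585). Some dimmer probe sets of these genes were called: Atp2a2 at −1.29, −1.21 and 1.24, Mybpc1 at −1.52 and −1.36, and Pln at 1.51. Ankrd2, a stretch-responsive gene of slow fibres, was the exception and was 2.63 (SE 0.158) higher.

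Fast-twitch genes were the group with the highest median: 12 of 15 were higher, 0 lower and 3 not called (median 2.79). Pvalb, the calcium buffer parvalbumin of fast fibres, was at 7.54, 7.78, 7.72, 7.83 and 7.95 in the hindquarters and at 14.19 to 14.27 in the pectoralis, a difference of 6.48 (SE 0.0668, 89.3-fold). The fast myosin binding protein Mybpc2 differed by 5.60 (SE 0.234), alpha-actinin 3, Actn3, by 4.43 (SE 0.211) and the myosin light chain kinase Mylk2 by 4.09 (SE 0.0772). The fast calsequestrin Casq1 (2.79, SE 0.132), the fast calcium pump Atp2a1 (2.28, SE 0.112), Myoz1 (2.16, SE 0.0909) and the fast troponins Tnni2 (1.72, SE 0.0754) and Tnnt3 (1.53, SE 0.0824) were higher by less. Mybpc2 reads 13.99 in all 5 pectoralis pools, because it held the brightest rank of MOE430B in each and quantile normalization gives that rank a common value; its spread there is not measured. The fast light chains Mylpf (0.63, SE 0.0743) and Myl1 (0.35, SE 0.0491) and fast troponin C, Tnnc2 (0.43, SE 0.0549), were already among the brightest probe sets in the hindquarters and did not reach 2-fold. By within-array ranks, where a call needs a shift of 10 percentile points and bright genes have little room, 7 of the 15 were called. Genes of the sarcomere common to all fibres were higher in 12 of 16 cases and lower in 0 (median 1.95), led by telethonin, Tcap (4.13, SE 0.144), Cmya5 (3.98, SE 0.142) and Tmod4 (3.62, SE 0.0902). Skeletal actin, Acta1, at 14.20 to 14.45 and 14.40 to 14.45, was not called. By ranks, 4 of the 16 were called, and 15 with median centring.

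**Figure D2:**
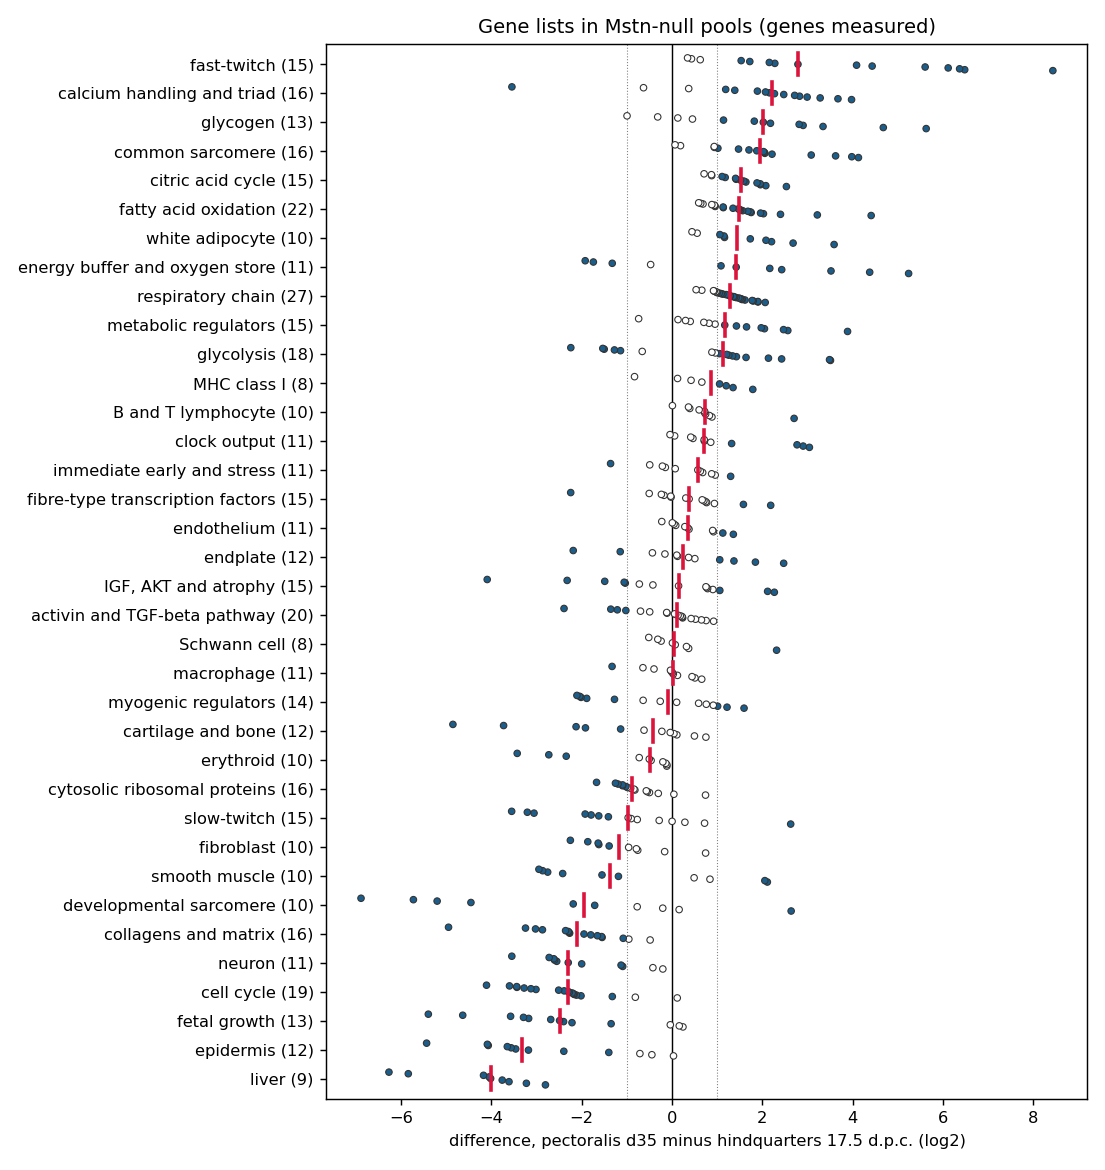
Difference between Mstn-null pectoralis and hindquarters (log2) for every measured member of 36 gene lists, with filled points for genes called at a Benjamini-Hochberg adjusted p under 0.05 and a 2-fold difference, open points for genes not called, red bars for list medians and dotted lines at a difference of 1 either way. Fast-twitch, calcium handling and glycogen genes have medians of 2.79, 2.22 and 2.02, and the liver, epidermis and fetal growth lists have medians of −4.01, −3.32 and −2.49.

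The machinery that couples excitation to contraction was higher as well: 13 of 16 calcium handling and triad genes were higher, 1 lower and 2 not called (median 2.22; 5 and 1 by ranks). Cacna1s, the voltage sensor of the T-tubule, was at 7.39, 7.30, 7.69, 7.40 and 7.67 against 11.55, 11.60, 11.37, 11.36 and 11.44, a difference of 3.98 (SE 0.0852, 15.7-fold). Ryr1, the calcium release channel, differed by 3.28 (SE 0.136) and triadin, Trdn, by 3.67 (SE 0.121). Sarcolipin, Sln, a small inhibitor of the calcium pump, was the member that was lower. It stood at 12.42, 12.44, 12.62, 12.56 and 12.61 in the hindquarters and at 8.71, 8.49, 9.20, 8.91 and 9.62 in the pectoralis (−3.54, SE 0.169). At the nerve contact, 4 of 12 endplate genes were higher and 2 lower (median 0.25, and −0.47 on the deposited values), among them the adult epsilon subunit Chrne (2.47, SE 0.0635) opposite the fetal gamma subunit Chrng.

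Exchange of an early or ubiquitous isoform for a mature or muscle one was a general pattern among the listed pairs. It was read as the difference of the mature gene minus that of its early partner, where a shift of the whole scale cancels. The part of the mix of tissues in these values was not tested. Of 29 listed pairs, 26 had both genes measured, and in 24 of them the mature gene moved up relative to its partner, by a median of 4.14 over all 26. In 13 pairs the early gene was called lower and the mature gene higher. The mature gene was higher in 22 pairs and lower in 0, and the early gene was lower in 15 and higher in 1. The widest exchange after the myosins was that of cardiac for fast skeletal troponin T (Tnnt2 to Tnnt3), followed by the mitochondrial creatine kinases, Ckmt1 (−1.32, SE 0.13) and Ckmt2 (4.38, SE 0.117). The glucose transporters Slc2a1 (GLUT1, −1.50, SE 0.0665) and Slc2a4 (GLUT4, 3.51, SE 0.0912) and the cytochrome c oxidase subunits Cox8a (−1.22) and Cox8b (3.58, SE 0.0763) also exchanged. The exceptions were the sarcomeric actins, where Actc1 and Acta1 were both not called, and lactate dehydrogenase, where Ldhb (1.26, SE 0.0591) and Ldha (1.21, SE 0.0417) were higher together.

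**Figure D3:**
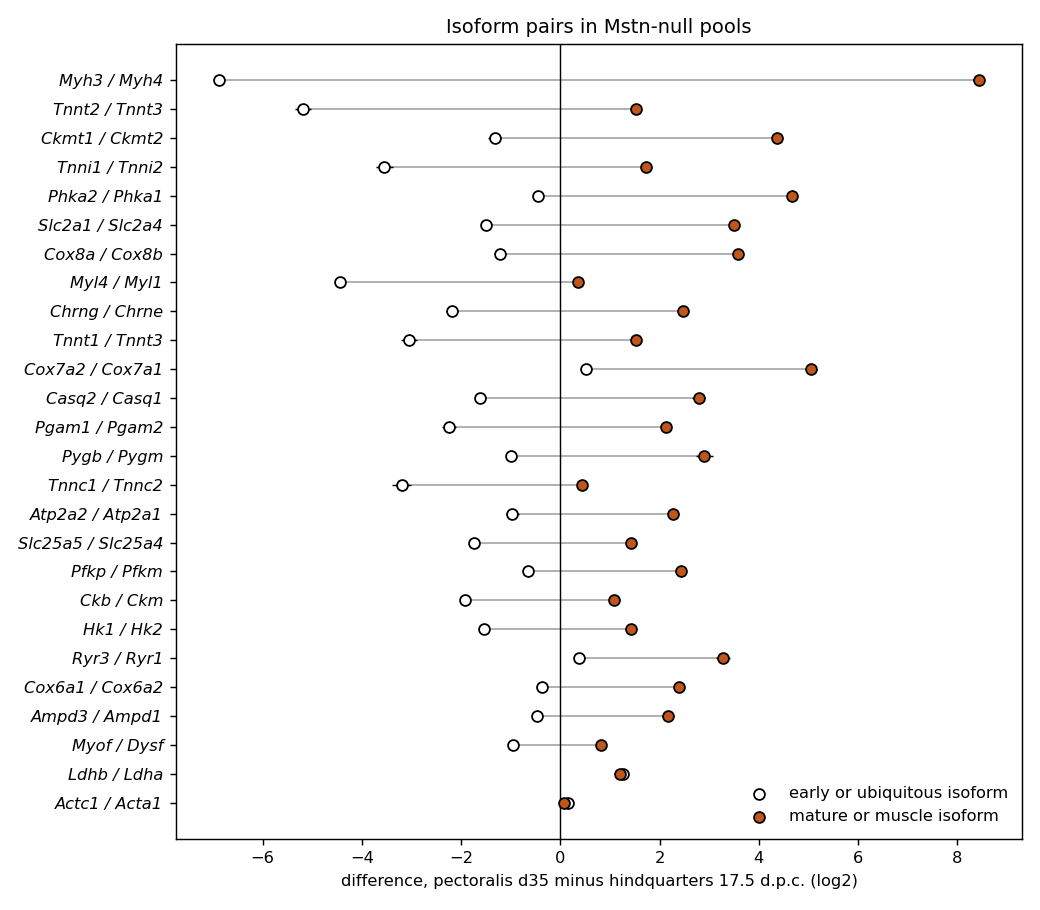
Difference between Mstn-null pectoralis and hindquarters (log2, with bars of 1 SE, mostly smaller than the points) for the 26 measured isoform pairs, with open points for the early or ubiquitous gene and filled points for the mature or muscle gene. The mature gene lies to the right of its partner in 24 pairs, from Myh3 and Myh4 at the top to the overlapping points of lactate dehydrogenase and actin at the bottom.

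Fetal growth genes, many of them imprinted and expressed before birth, were lower in 10 of 13 cases and higher in 0, with 3 not called (median −2.49; 5 lower by ranks). Dlk1, an inhibitor of differentiation, was at 13.17, 12.96, 13.24, 13.13 and 13.20 in the hindquarters and at 7.86, 7.89, 7.63, 7.78 and 7.59 in the pectoralis, a difference of −5.39 (SE 0.0726, 42-fold lower). Mest differed by −4.63 (SE 0.0949), Plagl1 by −3.57 (SE 0.097) and Hmga2, a chromatin protein of growing fetal tissue, by −3.29 (SE 0.0774). Igf2, the fetal insulin-like growth factor, was at 13.87 to 14.01 and fell to 11.60 to 11.83 (−2.21, SE 0.0553), less than these. Of 15 IGF, AKT and atrophy genes 5 were lower, 3 higher and 7 not called (median 0.15). The insulin-like growth factor Igf1 (−2.32, SE 0.0722, lower in 2 of its 4 probe sets) and its binding protein Igfbp2 (−4.09, SE 0.0455) were lower. The muscle ubiquitin ligases Trim63 (2.27, SE 0.107) and Fbxo32 (2.12, SE 0.126), which mark protein breakdown, were higher.

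Cell division genes were lower in 17 of 19 cases and higher in 0 (median −2.30), and this count was 17 to 18 under each of the other scales. Mki67, a marker of cycling cells, was at 11.09, 10.72, 11.25, 10.87 and 10.62 in the hindquarters and at 7.04, 7.05, 6.40, 7.06 and 6.47 in the pectoralis, a difference of −4.10 (SE 0.16, 17.2-fold lower). Rrm2, Mcm5 and Top2a, which serve DNA synthesis, differed by −3.59 (SE 0.185), −3.44 (SE 0.123) and −3.43 (SE 0.126). In bulk samples, fewer cycling cells and less of these transcripts in each cell cannot be told apart. The 250 bases before the start of Mki67 are shown as an example of the promoters in this group, from RefSeq at chr7:135716380-135716629 on build GRCm38.p6, minus strand, with capitals on matches on either strand to TTTGAA (the cell cycle homology region) and CCAAT.
Mki67: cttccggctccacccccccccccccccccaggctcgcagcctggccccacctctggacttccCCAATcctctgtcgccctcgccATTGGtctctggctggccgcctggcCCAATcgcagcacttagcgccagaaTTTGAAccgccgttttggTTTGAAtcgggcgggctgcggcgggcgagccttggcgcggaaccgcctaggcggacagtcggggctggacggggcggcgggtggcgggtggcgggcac
This stretch held 2 TTTGAA and 3 CCAAT matches. Of the 16 cell division genes with a promoter stretch, 6 held TTTGAA (37.5%) and 14 held CCAAT (87.5%), against 16.3% and 34.5% of all 27025 promoters and 11.9% and 35.7% of those of measured genes, as a description of letters only. Cytosolic ribosomal protein genes were lower in 6 of 16 cases (median −0.88), in 12 of 16 on the deposited values and in 2 with median centring, and the striated muscle paralogue Rpl3l was among the 12 largest rises, from 6.20 to 6.87 in the hindquarters to 12.16 to 12.25 in the pectoralis (5.64, SE 0.108).

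Genes of energy metabolism were mostly higher in the Mstn-null pectoralis. Of 22 genes of fatty acid uptake and oxidation, 15 were higher and 0 lower (median 1.48). Pdk4, the kinase that turns pyruvate away from oxidation, was at 6.59, 6.26, 6.72, 6.16 and 6.21 in the hindquarters and at 11.15, 10.89, 10.98, 10.84 and 10.11 in the pectoralis (4.41, SE 0.176, 21.3-fold), and the fatty acid carrier Fabp3 differed by 3.22 (SE 0.0911). Of 15 citric acid cycle genes, 12 were higher and 0 lower (median 1.52), with Ogdh at 2.53 (SE 0.069) and citrate synthase, Cs, at 1.96 (SE 0.0635). Of 27 respiratory chain genes, 21 were higher and 0 lower (median 1.29), with no member above Ndufs1 (2.06, SE 0.0492). The counts of these lists depend on the scale. In the deposited values 7 of the 22, 7 of the 15 and 6 of the 27 were called, and by ranks 10, 2 and 0, with 0 called lower in each, and the medians of the deposited values were 0.73, 0.93 and 0.81. Relative to the median of the common sarcomere list the 3 medians were −0.47, −0.43 and −0.66.

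The muscle isoforms of cytochrome c oxidase subunits, taken from the isoform pairs and not from that list, differed more. Cox7a1 was at 6.82, 7.04, 7.13, 6.89 and 7.06 against 12.14, 12.02, 11.99, 12.05 and 12.01 (5.06, SE 0.0629, 33.2-fold), Cox8b differed by 3.58 (SE 0.0763) and Cox6a2 by 2.40 (SE 0.0966). Myoglobin, Mb, the oxygen store of oxidative fibres, was at 7.17, 7.20, 7.28, 7.77 and 7.69 and reached 12.76, 12.53, 12.85, 12.70 and 12.46 (5.24, SE 0.125, 37.8-fold). Among the regulators, 8 of 15 were higher and 0 lower (median 1.17), and 5 and 1 on the deposited values. Ppargc1a, the coactivator of mitochondrial genes, was at 5.30, 5.38, 5.48, 5.88 and 5.35 against 9.42, 9.70, 9.21, 8.58 and 9.91 (3.89, SE 0.21, 14.8-fold) and was higher in all 5 of its probe sets. The AMP kinase subunit Prkag3, typical of fast glycolytic muscle, differed by 2.57 (SE 0.0732), the orphan receptor Nr4a1 by 2.47 (SE 0.216) and Perm1 by 2.05 (SE 0.0765).

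Genes of glycogen and glucose metabolism were called in both directions. Of 13 glycogen genes 9 were higher and 0 lower (median 2.02; 5 and 1 by ranks). Phkg1, the catalytic subunit of muscle phosphorylase kinase, stood at 4.69, 4.68, 4.74, 5.13 and 5.05 in the hindquarters and at 10.51, 10.56, 10.35, 10.58 and 10.44 in the pectoralis (5.63, SE 0.0926, 49.4-fold), and its regulatory partner Phka1 differed by 4.68 (SE 0.0893). The muscle phosphorylase Pygm, which releases glucose from glycogen, differed by 2.90 (SE 0.17). Of 18 glycolysis genes 10 were higher and 5 lower (median 1.13). Those higher included Slc2a4, Gpd1 (3.49, SE 0.148), Pfkm (2.43, SE 0.11) and Pgam2 (2.14, SE 0.0827), and those lower were Pgam1 (−2.24, SE 0.14), Hk1 (−1.53, SE 0.0821), Slc2a1, Aldoc (−1.27) and Pfkl (−1.14, added to complete the 5), which other tissues use. The non-muscle isoforms did not all follow, since Ldhb was higher and Pfkp (−0.66, SE 0.0685) and the glycogen phosphorylase Pygb (−0.99, SE 0.0574) were not called. On the deposited values 6 were higher and 6 lower, and by ranks 2 and 6. Of 11 energy buffer genes 7 were higher and 3 lower (median 1.42), and Ckb (−1.92), Slc25a5 (−1.74) and Ckmt1 were the 3.

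**Figure D4:**
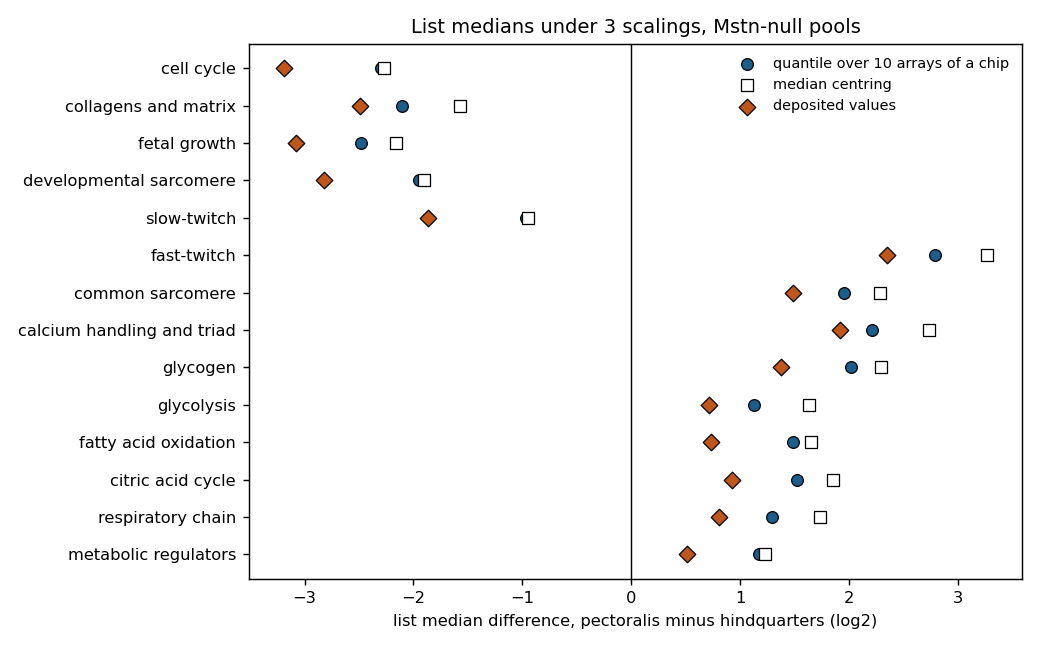
Median difference of 14 gene lists between Mstn-null pectoralis and hindquarters (log2), with circles for quantile normalization of the 10 arrays of a chip, squares for median centring of each array and diamonds for the deposited values. Every list drawn keeps its direction under the 3 scales, and its diamond lies to the left of the circle and the square.

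Of 14 myogenic regulators, 5 were lower, 3 higher and 6 not called (median −0.08). Myf5, an early determination factor, was at 6.41 to 6.65 and 4.22 to 4.54 (−2.10, SE 0.0676), Meox2 differed by −2.04 (SE 0.138), and Mymk, the fusion protein myomaker, by −2.01 (SE 0.148). Myf6, the factor of mature fibres, was at 8.79 to 9.10 and 10.42 to 10.71 (1.60, SE 0.075), and Eya1, which acts early in the muscle lineage (1.22, SE 0.0853), and Mef2c (1.01, SE 0.223) were higher as well. Myog, the factor of differentiating myoblasts, differed by −1.27 (SE 0.195) and Msc by −1.89 (SE 0.0571), Myog being added to complete the 5. On the deposited values 7 of the 14 were lower and 0 higher. Of 15 fibre-type factors 3 were called, near the 19.7% called over all genes. Sox6, a repressor of slow genes, differed by 1.58 (SE 0.0601) and was higher in all 4 of its probe sets. Tbx15, a factor of fast fibres, differed by 2.19 (SE 0.0676), and Nfatc4 by −2.24 (SE 0.0706). In the pathway that myostatin itself uses, 4 of 20 activin and TGF-beta genes were lower and 0 higher (median 0.11, and −0.71 on the deposited values). Over all genes, 10.9% were lower and 8.83% higher. Among the 4 were Fstl1 (−2.39, SE 0.0775), Tgfbr2, a TGF-beta receptor (−1.35, SE 0.0851), and follistatin, Fst, an antagonist of myostatin and activins (−1.21, SE 0.0793). The activin receptor gene Acvr2b, singled out after its values were seen, differed by 0.24 (SE 0.0587) and was not called by its brightest probe set. Among clock output genes 4 of 11 were higher and 0 lower (median 0.72), with Nr1d2 at 3.04 (SE 0.147), Nr1d1 at 2.90 (SE 0.148) and Dbp at 2.77 (SE 0.262); the hour of death is not given in the sources used here, and its part was not tested.

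Markers of other tissues moved with the comparison. The 12 largest falls held Myh3, Myh8 and Tnnt2 beside the liver and gut genes Afp, Ttr, Fabp1, Fabp2 (−6.33), Apoa1 (−6.30) and Alb, the cadherin Cdh11 (−5.60), the angiotensin receptor Agtr2 (−5.51) and the growth factor Ptn (−5.47), whereas the 12 largest rises were muscle genes apart from Ucp1 and Tnfaip2 (4.94). These rankings took the most extreme probe set of a gene. It was not the brightest for Afp, Ttr, Fabp1, Apoa1, Ptn, Tnnt2, Trdn and Tnfaip2. The brightest probe sets of these genes differed by less. For Tnnt2 and Trdn they gave −5.20 and 3.67, against −5.45 and 5.18 in the rankings. Ranked values of Afp, Ttr and Fabp1 were −7.95, −7.20 and −6.88. With each pool left out in turn, their brightest probe sets gave −7.23 to −5.99, −3.87 to −3.00 and −6.35 to −5.74. The same ranges were −4.10 to −3.65 for Apoa1, −3.78 to −3.69 for Ptn and 1.78 to 1.97 for Tnfaip2. All 9 liver markers were lower in the pectoralis (median −4.01), and Alb was at 14.04, 13.71, 13.85, 13.39 and 9.43 in the hindquarters pools against 6.92 to 7.22 in the pectoralis. Hindquarters replicate 5 stood apart from its 4 partners in this respect, and the mean level of the list was 7.93 to 12.29 over the hindquarters pools and 6.86 to 7.02 over the pectoralis pools. The liver counts were 9 of 9 without any pool in turn, with medians of −4.96 to −3.65. Epidermal markers were lower in 9 of 12 cases (median −3.32; list means 8.29 to 10.05 against 6.50 to 6.57), with keratin 10, Krt10, ranging from 8.49 to 12.93 among the hindquarters pools. Neuronal markers were lower in 9 of 11 (median −2.29; 7.53 to 7.87 against 5.81 to 5.87), cartilage and bone markers in 5 of 12 (median −0.42; 7.31 to 7.79 against 6.36 to 6.48) and erythroid markers in 3 of 10 (median −0.48; 7.29 to 8.42 against 6.87 to 6.99). On the deposited values 8 of the 12 cartilage and bone markers and 10 of the 10 erythroid markers were lower, and by ranks 6 and 6. Collagens and matrix genes were lower in 14 of 16 (median −2.10), led by Fbn2 (−4.94, SE 0.0851), Lox (−3.24, SE 0.0709) and Postn (−3.02, SE 0.0766), with 6 called by ranks, and fibroblast markers in 5 of 10 (median −1.17; 10.24 to 10.47 against 9.15 to 9.37), or 8 of 10 on the deposited values. Smooth muscle markers were lower in 6 of 10 and higher in 2 (median −1.37; 9.83 to 10.32 against 9.24 to 9.27). The part of these tissues in the lower levels of fetal growth, cell division and ubiquitous isoform genes was not tested.

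White adipocyte markers went the other way, with 8 of 10 higher and 0 lower (median 1.45; list means 7.36 to 7.87 against 8.93 to 9.76), or 5 of 10 on the deposited values. Scd1 differed by 3.59 (SE 0.217), Cidec by 2.68 (SE 0.219) and the hormone-sensitive lipase Lipe by 2.20 (SE 0.211). Ucp1, the uncoupling protein of brown fat, was among the 12 largest rises and the most variable of them in the pectoralis, at 6.14, 6.32, 6.29, 6.64 and 6.50 against 10.41, 11.08, 11.41, 11.39 and 12.05 (4.89, SE 0.232). Of further brown fat genes, singled out after these values were seen, Cidea differed by 3.66 (SE 0.173) and Elovl3 by 1.27 (SE 0.0831), while Prdm16 (−0.07, SE 0.107) and Dio2 (0.17, SE 0.0653) were not called. Replicate 5 was the highest pectoralis pool for Ucp1, Cidea, Elovl3 and Cidec, and replicate 1 the lowest for Ucp1, Cidea and Cidec. The part of fat cells in the higher level of the fatty acid oxidation list was not tested. Endothelial markers were higher in 2 of 11 and lower in 0 (median 0.35; 8.33 to 8.40 against 8.74 to 8.91), lymphocyte markers higher in 1 of 10 (median 0.72; 7.04 to 7.19 against 7.64 to 8.13), macrophage markers lower in 1 of 11 (median 0.01; 8.09 to 8.15 against 7.79 to 8.18), and Schwann cell markers higher in 1 of 8 (median 0.04; 7.83 to 8.12 against 8.16 to 8.31), that gene being the myelin protein Mbp (2.32, SE 0.148). Of 8 MHC class I genes 4 were higher and 0 lower (median 0.86; 0 and 1 on the deposited values), and of 11 immediate early genes 1 was higher and 1 lower (median 0.57; 0 and 4 on the deposited values). By ranks 6 of the 10 lymphocyte markers were higher, and on the deposited values 3 of the 11 macrophage and 3 of the 8 Schwann cell markers were lower.

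Whether the maturation of Mstn-null muscle differed from that of wild-type muscle was tested with the wild-type pools of the same ages, as the Mstn-null difference minus the wild-type difference with all 20 arrays of a chip normalized together. Both genotypes share tissue and RNA isolation within an age. At a Benjamini-Hochberg adjusted p under 0.05, 48 of 45037 probe sets (0.107%) were called, 20 with a more positive (0.0444%) and 28 with a more negative (0.0622%) difference in the Mstn-null mice. The most negative were slow muscle genes. By the brightest probe set, 0.066% of genes were called more positive and 0.0824% more negative, and of the 15 slow-twitch genes 8 were, with 0 more positive, 14 values below 0 and a median of −1.11 against 0.0091 over all genes. Developmental, fast-twitch and common sarcomere genes had 0 calls each, with medians of 0.11, −0.21 and −0.04. The lack of calls in such a list does not show that its genes matured alike in both genotypes.

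Tnnt1 was lower at d35 in both genotypes but by different amounts. It was at 11.41, 11.49, 11.75, 11.68 and 11.76 in Mstn-null and 11.22, 11.70, 11.87, 11.78 and 11.84 in wild-type hindquarters, and at 8.80, 8.18, 9.15, 8.19 and 8.52 in Mstn-null and 10.89, 10.46, 10.77, 10.95 and 11.16 in wild-type pectoralis. The genotypes overlapped before birth and were apart at d35. Its age difference was −3.05 (SE 0.168) without and −0.84 (SE 0.168) with myostatin, a genotype difference of −2.21 (SE 0.237, adjusted p = 0.00013). The other slow troponins behaved in the same manner, Tnnc1 at −3.20 against −1.09 (−2.11, SE 0.233) and Tnni1 at −3.55 against −1.52 (−2.03, SE 0.224). The other slow-twitch genes called by their brightest probe set were lower at d35, or about level, without myostatin. Their wild-type differences were above 0, and slow genes not called are not covered here. Myh7 was −1.40 (SE 0.24) in Mstn-null and 0.45 (SE 0.24) in wild-type mice (−1.85, SE 0.34, adjusted p = 0.0315), Atp2a2, the slow calcium pump, −0.97 and 0.79 (−1.76, SE 0.194), and the slow light chains Myl2 0.29 and 2.21 (−1.92, SE 0.323) and Myl3 0.00 and 1.48 (−1.48, SE 0.207). A further probe set of Atp2a2 was called (−1.49), while its others gave −0.42, −0.28, −0.10 and −0.01 and were not called. The call of Myh7 was lost when any of 11 of the 20 pools was left out, with adjusted p up to 0.074 and differences of −2.02 to −1.67: Mstn-null replicates 3, 4 and 5 at 17.5 d.p.c. and 2 and 4 at d35, and wild-type replicates 2 and 4 at 17.5 d.p.c. and 1, 3, 4 and 5 at d35. Myoglobin rose in both genotypes and less without myostatin, by 5.24 (SE 0.117) against 6.23 (SE 0.117), a genotype difference of −0.99 (SE 0.166, adjusted p = 0.0137). Its dimmer probe set gave 0.14 and was not called.

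Calls in the other direction were smaller. Sln stood at 12.43 to 12.62 in Mstn-null and 12.07 to 12.53 in wild-type hindquarters and at 8.51 to 9.63 against 7.22 to 7.69 in the pectoralis, so its age difference was −3.54 against −4.81 (1.27, SE 0.214, adjusted p = 0.0137). Igf2 was at 13.85 to 14.00 and 13.90 to 14.02 before birth and at 11.60 to 11.85 in Mstn-null and 10.28 to 10.78 in wild-type pectoralis, age differences of −2.20 and −3.44 (1.24, SE 0.104, adjusted p = 8.08e-06). The imprinted gene Peg3 gave −2.68 against −3.37 (0.69, SE 0.114) in its brightest probe set. Its others gave 0.50, 0.34, 0.21 and 0.11 and were not called, and the dimmest were higher at d35 (1.47 and 1.23). The T lymphocyte receptor gene Cd28 gave 2.72 against 1.66 (1.06, SE 0.118) and the GABA receptor subunit Gabrr2 1.86 against 0.72 (1.14, SE 0.145). The dimmer probe sets of Sln (0.05), Igf2 (0.81) and Cd28 (0.86) were not called in this contrast. Cd28 and Tnni1 lie on chromosome 1, which also carries Mstn, and so does another called gene, Xrcc5 (0.60, SE 0.0959), singled out after its values were seen. The slow troponins Tnnt1 and Tnnc1 lie on chromosomes 7 and 14. Distances from Mstn were not examined, and the part of the shared chromosome in these values was not tested. The metabolic lists held few calls: 0 of 22 fatty acid oxidation, 0 of 15 citric acid cycle, 0 of 27 respiratory chain and 1 of 18 glycolysis genes, the last being Ldhb. Their values were nonetheless below 0 in 21 of 22, 13 of 15 and 25 of 27 cases, with medians of −0.23, −0.08 and −0.11, in genes that share their samples and are not independent. White adipocyte markers were below 0 in 10 of 10 (median −0.70) with 0 calls, and liver markers above 0 in 9 of 9 (median 1.25) with 0 calls. In Mstn-null hindquarters replicate 5 the mean level of the liver list was 7.93, against 11.37 to 12.29 in the other Mstn-null hindquarters pools. The part of that pool in the liver values was not tested, nor was the part of either list in the genotype differences.

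**Figure D5:**
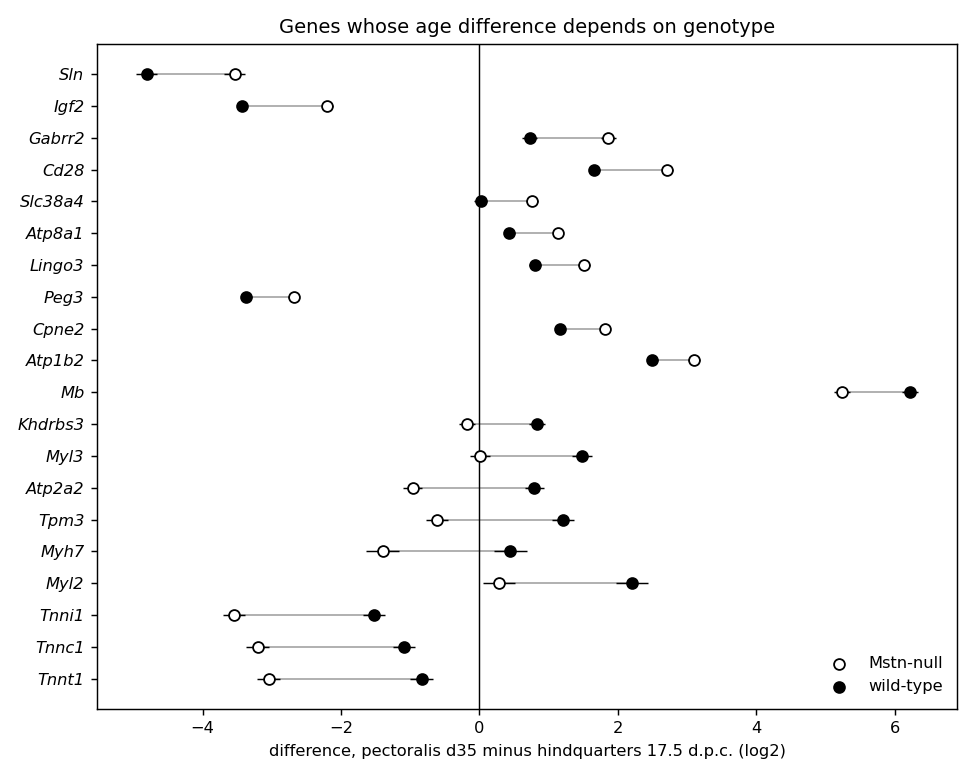
Difference between pectoralis of d35 and hindquarters of 17.5 d.p.c. (log2, with bars of 1 SE) in Mstn-null pools (open) and wild-type pools (filled), each of 5 pools at either age, for the 10 called genes with the most negative and the 10 with the most positive genotype difference. The slow troponins at the bottom lie further to the left in the Mstn-null mice, Myl2, Tpm3, Myh7 and Atp2a2 lie to the right of their Mstn-null points in wild-type mice, and Sln and Igf2 at the top fell less without myostatin.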

How the data were processed

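Pooled RNA of Mstn-null hindquarters (17.5 d.p.c.) and pectoralis (d35) was hybridized to MOE430A and MOE430B chips. The deposited values are log2 intensities that the authors made by RMA with the affy package of R, whose version is not given in the sources used here. Array medians were 7.78 to 7.83 and 6.88 to 6.92 on MOE430A and 6.89 to 6.91 and 6.17 to 6.20 on MOE430B at the 2 ages, so the 10 arrays of each chip were quantile normalized together (20 for the genotype contrast). Control probe sets were left out. MOE430A and MOE430B arrays with the same replicate number were taken as one pool, and 10 of 10 arrays of MOE430B were closest to their own partner. Groups came from the labels. Same-numbered pools of the 2 ages did not deviate together (r of −0.17 to 0.012), so numbers were not used as pairs.

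Linear models were fitted in R 4.3.3 with limma 3.58.1 (lmFit, eBayes), and figures were drawn with matplotlib 3.10.9 in Python 3.11.15. The scripts were tested on simulated data. A gene was read by the brightest probe set over the 10 pools that names only it; 34945 probe sets name 1 gene, 932 several and 9160 none, and 34741 were matched by gene ID. Genes described were drawn from the 12 largest rises and falls among called, separated probe sets, up to 4 called members of each list in each direction, all developmental, slow-twitch and fast-twitch genes, all isoform pairs and up to 10 genes in each direction of the genotype contrast; not all of these are described. The comparison, lists and pairs were chosen with earlier results of these data known. The 36 lists hold 520 genes, 483 of them measured. Alternatives were the deposited values, median centring, ranks (10 percentile points), fold minimums of none and 4, Storey q-values, a filter on dim probe sets, each chip alone, a trended robust fit, 1 probe set per gene, a fit of 20 pools, the replicate block and leaving out each pool. Intensities are not counts, so precision rests on the pools, whose median SD was 0.106 in the hindquarters and 0.0882 in the pectoralis; pools are separate animals.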

Additional observations from a re-analysis of the deposited data

Results flagged for a closer look

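A pool was far from the other 4 of its group by Dixon's ratio in 25 of 430 groups of 5 (5.81%), where chance gives about 1 in 20. In hindquarters replicate 5 the liver genes were low: Alb at 9.43 against 13.39 to 14.04 in the others, Ttr at 8.96 against 11.66 to 12.39, Apoa2 at 7.47 against 11.84 to 12.64, Afp at 8.36 against 12.79 to 13.20 and Fabp1 at 9.80 against 11.49 to 12.14. In hindquarters replicate 1, Atp8a1 was low at 7.31, Pln at 6.67 and Cidec at 5.12, and Fbn2 was high at 11.24. In hindquarters replicate 4, H2-K1 was low at 9.49 and Myl6b at 6.11.

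In the pectoralis, replicate 4 was high for Ampd1 at 12.47, Msc at 7.27, Fst at 7.29 and Eya1 at 8.18 and low for Pvalb at 14.19. Replicate 3 was high for Slc25a4 at 13.94 and low for Phkb at 10.93 and Slc4a1 at 6.52. Replicate 1 was low for Tnni2 at 14.80 and high for Ckmt1 at 6.69, replicate 2 low for Myl1 at 14.08 and high for Fgb at 5.73, and replicate 5 high for Slc2a4 at 11.96 and low for Mcm5 at 6.17.

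The age difference depended on genotype for the following genes, given as Mstn-null minus wild type on the log2 scale, each with a Benjamini-Hochberg adjusted p under 0.05 by limma. Values below 0 were those of Tnnt1 (−2.21), Tnnc1 (−2.11), Tnni1 (−2.03), Myl2 (−1.92), Myh7 (−1.85), Tpm3 (−1.82), Atp2a2 (−1.76), Myl3 (−1.48), Khdrbs3 (−1.01) and Mb (−0.99). Values above 0 were those of Sln (1.27), Igf2 (1.24), Gabrr2 (1.14), Cd28 (1.06), Slc38a4 (0.74), Atp8a1 (0.71), Lingo3 (0.70), Peg3 (0.69), Cpne2 (0.65) and Atp1b2 (0.60). For Tpm3 and Atp8a1 the call came from probe sets other than the brightest. By limma the brightest gave −0.41 for Tpm3 (adjusted p = 0.663) and 0.60 for Atp8a1 (adjusted p = 0.509). Leaving out single pools ended 3 of these calls: that of Myh7 without any of the 11 pools named for it above; that of Slc38a4 (adjusted p up to 0.058, values 0.67 to 0.80) without Mstn-null replicate 4 of either age or wild-type replicates 3 and 5 of d35; and that of Atp1b2 (adjusted p up to 0.128, values 0.54 to 0.66) without any pool except Mstn-null replicates 3 and 5 and wild-type replicates 2 and 5 at 17.5 d.p.c. and wild-type replicate 1 at d35. The call of Atp1b2, which lay just under the threshold, was also lost in the deposited values and with the replicate block, at adjusted p of 0.0549 and 0.0625.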

How the results depend on the processing

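The count of 7917 called probe sets became 17373 in the deposited values, 16994 by within-array ranks, 35612 without a fold minimum, 1666 at 4-fold, 4992 on MOE430A alone, 2938 on MOE430B alone and 3592 with 1 probe set per gene. It was 7806 to 8184 when each pool was left out in turn and 7916 with the replicate block. The 48 genotype calls became 18 at 2-fold, 41 with the replicate block, 44 in the deposited values and 31 to 77 when each pool was left out, the extremes coming without d35 Mstn-null replicate 4 or d35 Wildtype replicate 3 (31 each) and without 17.5 d.p.c. Wildtype replicate 5 (77). The block was run for these 2 counts and for the named genotype calls, of which it ended that of Atp1b2 and no other. Its numbers mark no shared origin.

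List medians turned below 0 in the deposited values for fibre-type factors (−0.21), endplate (−0.47), activin and TGF-beta (−0.71), IGF, AKT and atrophy (−0.59), immediate early (−0.31), Schwann cell (−0.94), endothelium (−0.48), macrophage (−0.92) and lymphocyte genes (−0.23), and with median centring for Schwann cell (−0.016) and macrophage genes (−0.0021). Relative to the common sarcomere median, those of fibre-type factors (−1.57), endplate (−1.71), fatty acid oxidation (−0.47), citric acid cycle (−0.43), respiratory chain (−0.66), glycolysis (−0.82), energy buffer (−0.53) and metabolic regulators (−0.78) lay below 0. The cause of each was not tested, beyond the shift of all probe sets by −0.77 in the deposited values. Of the called genes named, 0 changed direction under any scale. Among the 215 genes checked, the age difference was weaker for 49 by ranks, 23 in the deposited values and 5 with median centring. It was stronger for 7, 12 and 4. Calls of Mef2c, Igf2r, H2-K1, Tgfbr1, Foxo1 and Rpl12, each near 2-fold, were lost when 1 to 3 single pools were left out. Dim probe sets have no detection call, so low levels and folds from them are bounded by background that was not measured here.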
